A study of Arabidopsis thaliana with 8 samples.

Results

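Glutathione S-transferases of Arabidopsis thaliana were followed in 8 RNA-seq libraries of seedlings. The members were taken by name: every row of the deposited expression table whose gene name is GST followed by U, F, Z, T or L and a number, with or without a leading AT. That gave 48 genes of 27655 rows, of which 27 belong to the tau class (GSTU), 13 to the phi class (GSTF), 2 to the zeta class (GSTZ), 3 to the theta class (GSTT) and 3 to the lambda class (GSTL). A search of 49 family loci by identifier found 1 that the name rule misses, AT1G10370, which the table calls ERD9 and the reference annotation places in the tau class as GSTU17.

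These enzymes join the tripeptide glutathione to electrophilic compounds, and the conjugates are moved into the vacuole by ABCC transporters. The tau and phi classes are the large plant classes and take part in the detoxification of herbicides, oxidised lipids and the plant's own reactive metabolites. Some phi and tau members supply glutathione for glucosinolate or camalexin synthesis, and others bind flavonoids or hormones without turning them over. The zeta class acts in tyrosine breakdown, the theta class reduces organic hydroperoxides, and the lambda class carries a cysteine at its active site and removes glutathione from its substrates.

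The groups were prp43a seedlings after heat, wild-type seedlings after heat, prp43a seedlings at control temperature and wild-type seedlings at control temperature, with 2 libraries each that the labels call biological replicates. Wild type was Col-0, and prp43a was the T-DNA insertion allele prp43a-1, 1 line, named for a gene of a DEAH-box RNA helicase that takes spent spliceosomes apart. All seedlings were grown for 7 days at 22 °C in 16 h light and 8 h dark on agar with sucrose, and the heat groups were then held at 38 °C for 16 h while the controls had no treatment. The hour of harvest is not given in the labels, so heat and time of day cannot be told apart. Expression was given as TPM, a share of transcripts corrected for gene length that sums to 1000000 in each library. Low values lay on whole multiples of what 1 read is worth, and the totals recovered from those steps were 4071041 to 4783641 reads per library.

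The genotype labels were checked at AT3G62310, a gene homologous to yeast Prp43, although the labels and the table do not tie the name PRP43a to a locus. It had 10.3 and 8.24 TPM in prp43a heat and 64.6 and 72.4 TPM in wild-type heat, against 1.68 and 1.44 TPM in prp43a control and 26.7 and 29.8 TPM in wild-type control. Both genotype comparisons of it passed the test used throughout, limma on log2(TPM + 1) over 19697 genes with Benjamini-Hochberg adjustment (adjusted p = 0.000234 after heat and 2.31e-05 at control temperature). Shoot and root markers were both present, as in whole seedlings. The 6 shoot and leaf markers summed to between 17853 and 22440 TPM in the 4 heat libraries, against 68271 to 71572 TPM in the 4 control libraries, and all 6 passed the test as lower with heat in both genotypes. Summed TPM of the 10 root markers lay between 142 and 177 in heat and between 1118 and 1358 at control temperature, mostly from PYK10. Of the 8 tested, 5 were lower with heat in prp43a and 2 in wild type. SHV2, PRP3, IRT1 and NRT2:1 were at 0 in wild-type control replicate 1 and NRT2:1 in replicate 2, while none was at 0 in prp43a control. In each heat library 1 to 4 of the 10 were at 0. Of 5 dry seed markers, CRU3, CRU2 and SESA2 were at 0 in every library, and the summed level was at most 9.66 TPM in heat and 0.193 TPM at control temperature. The part of these marker changes in the heat results was not tested, and in whole seedlings fewer cells of a type and less RNA per cell cannot be told apart.

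Levels within the family ran from 0 to 1393 TPM. GSTU15 and GSTU21 were listed at 0 in all 8 libraries. A further 4 members, GSTU2, GSTU3, GSTF3 and GSTZ2, failed the filter of at least 1 TPM in at least 2 libraries, with highest values of 1.51, 1.34, 4.12 and 1.65 TPM. The other 42 were tested: 23 tau, 12 phi, 1 zeta, 3 theta and 3 lambda genes. A mean of at least 20 TPM in at least 1 group was reached by 18 of the 48.

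**Figure D1:**
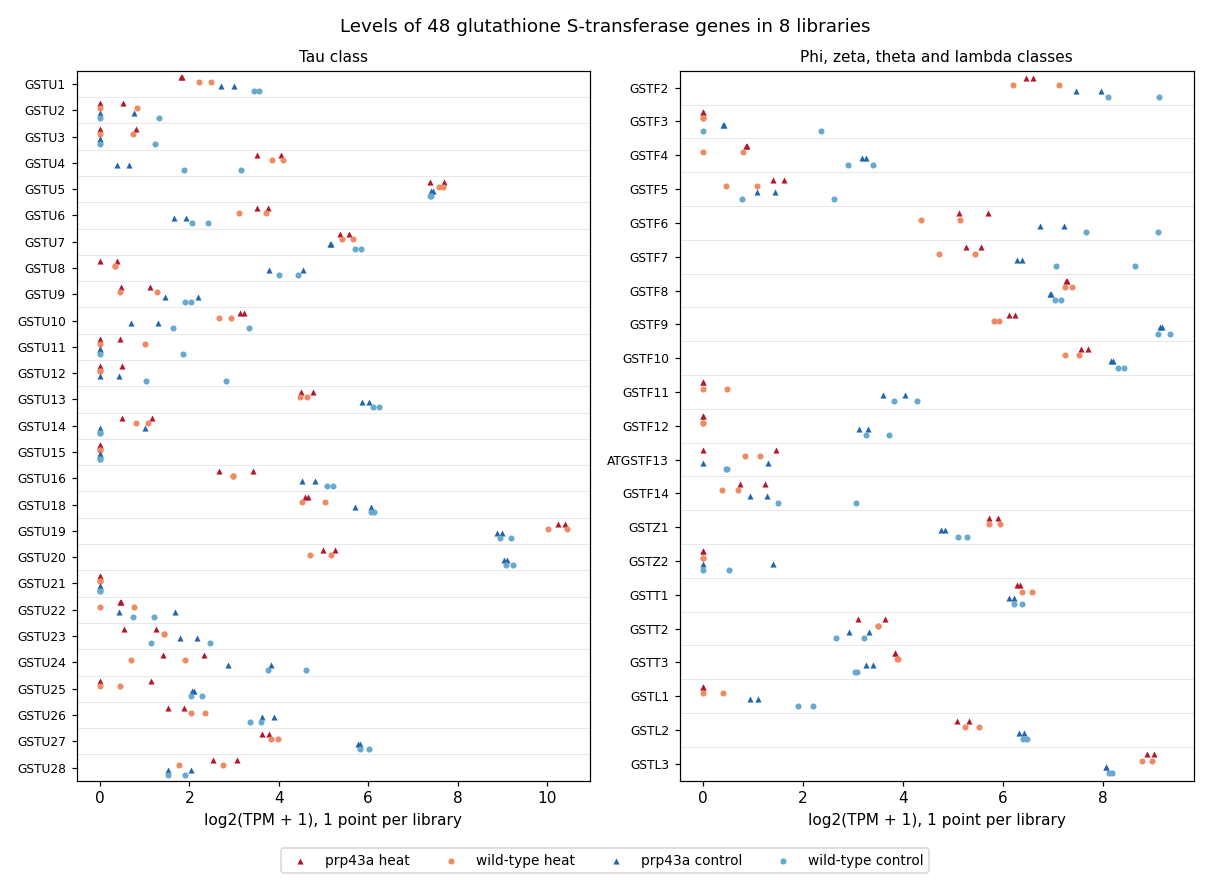
Level of each of the 48 genes as log2(TPM + 1), with 1 point per library, 2 libraries per group, triangles for prp43a and circles for wild type, red and orange for heat and blue for control. GSTU19 lies highest in all 4 heat libraries, GSTU20 and GSTF9 lie far to the left in heat, and GSTU15 and GSTU21 stay at 0.

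The family's summed level was 3115 and 2783 TPM in prp43a heat and 3060 and 2625 TPM in wild-type heat, against 3399 and 3393 TPM in prp43a control and 4939 and 3692 TPM in wild-type control. The heat libraries were lower than every control library, and wild-type control replicate 1 stood above all others. GSTF2, GSTF6 and GSTF7 together made 194 and 158 TPM in prp43a heat, 215 and 118 TPM in wild-type heat, 359 and 480 TPM in prp43a control, and 1501 and 608 TPM in wild-type control. Without them the family summed to 2922 and 2625 TPM in prp43a heat and 2845 and 2507 TPM in wild-type heat, against 3040 and 2913 TPM in prp43a control and 3438 and 3085 TPM in wild-type control. On that sum prp43a heat replicate 1 lay just above prp43a control replicate 2, so heat and control libraries overlapped.

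Which class held the transcripts differed between heat and control. The tau sum was 1761 and 1563 TPM in prp43a heat and 1787 and 1437 TPM in wild-type heat, against 1543 and 1443 TPM in prp43a control and 1746 and 1564 TPM in wild-type control, so heat and control libraries overlapped. Phi genes summed to 633 and 572 TPM in prp43a heat and 610 and 492 TPM in wild-type heat, against 1391 and 1485 TPM in prp43a control and 2685 and 1636 TPM in wild-type control, with no overlap. The zeta, theta and lambda genes together made 721 and 649 TPM in prp43a heat and 663 and 697 TPM in wild-type heat, against 465 TPM in each prp43a control library and 509 and 492 TPM in wild-type control. The 5 most abundant members held 77.0% to 78.7% of the family's TPM in the heat libraries and 58.8% to 64.8% in the control libraries. After heat GSTU19 was the most abundant member and GSTL3 came next in all 4 libraries, while at control temperature GSTF9 led, followed by GSTU20 and then GSTU19, in all 4.

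**Figure D2:**
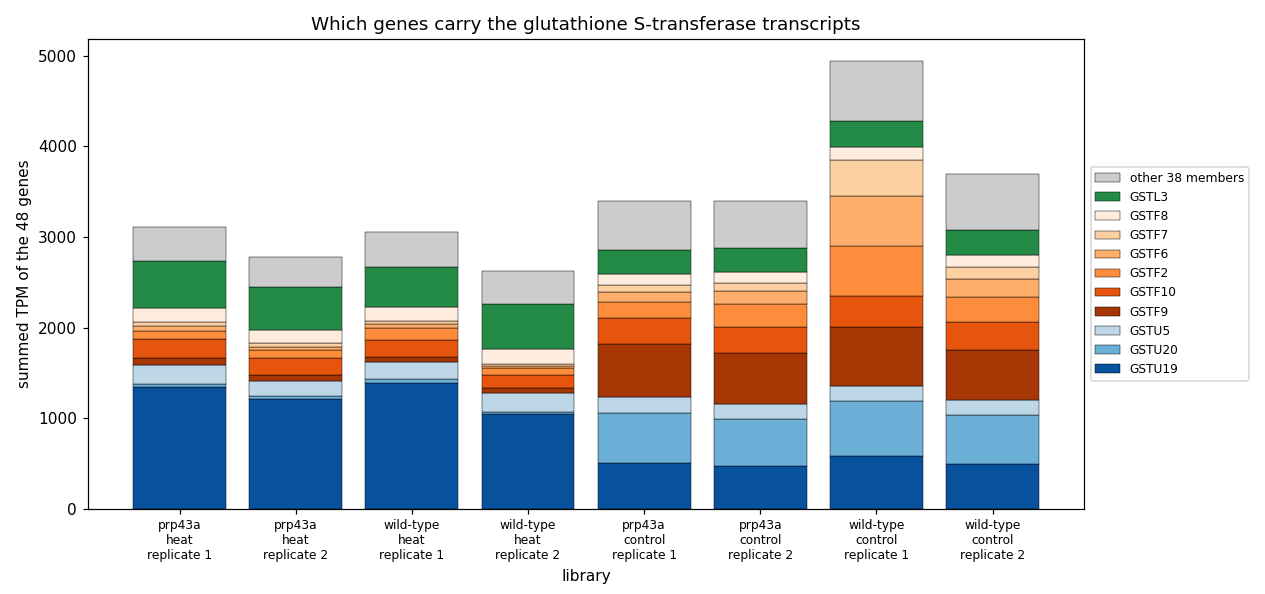
Summed TPM of the 48 genes in each of the 8 libraries, stacked by gene for 10 abundant members and with the other 38 in grey. The blocks of GSTU20 and GSTF9 are thin in the 4 heat libraries, the GSTU19 block is taller there, and the GSTF2, GSTF6 and GSTF7 blocks are widest in wild-type control replicate 1.

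Heat against control was the comparison with the most changes. In prp43a, 10 of the 42 tested members rose, 21 fell and 11 did not pass, where 43.1% of all tested genes rose and 27.0% fell. In wild type 6 rose, 23 fell and 13 did not pass, where 42.4% of all tested genes rose and 27.6% fell. The median log2 fold change of the members was -0.75 in prp43a, or -0.57 with genes at 0 in heat put at the bound that 3 reads allow, and -1.09 in wild type, beside 0.28 and 0.25 over all tested genes. A scaling by median of ratios moved the median over all genes to -0.01 in both genotypes. Under it 6 members rose and 22 fell in prp43a, and 6 rose and 24 fell in wild type. Set against the median over all genes, 31 of 42 members lay below it and 11 above it in each genotype.

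The same 6 genes rose in both genotypes, namely GSTU4, GSTU6, GSTU19, GSTZ1, GSTT3 and GSTL3, which is 6 of the 10 in prp43a and 6 of the 6 in wild type. A set of 20 fell in both, 20 of the 21 in prp43a and 20 of the 23 in wild type, and no member was called in opposite directions. The shares of all tested genes called alike or in opposite directions in both genotypes are not given, so this agreement is not shown to be particular to the family. In prp43a alone, GSTU7, GSTU10, GSTU28 and GSTF8 passed as higher and GSTU23 as lower. In wild type alone, GSTU12, GSTF7 and GSTF14 passed as lower. No member passed the test of the difference between the 2 heat responses, so these 8 are not shown to differ between genotypes.

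**Figure D3:**
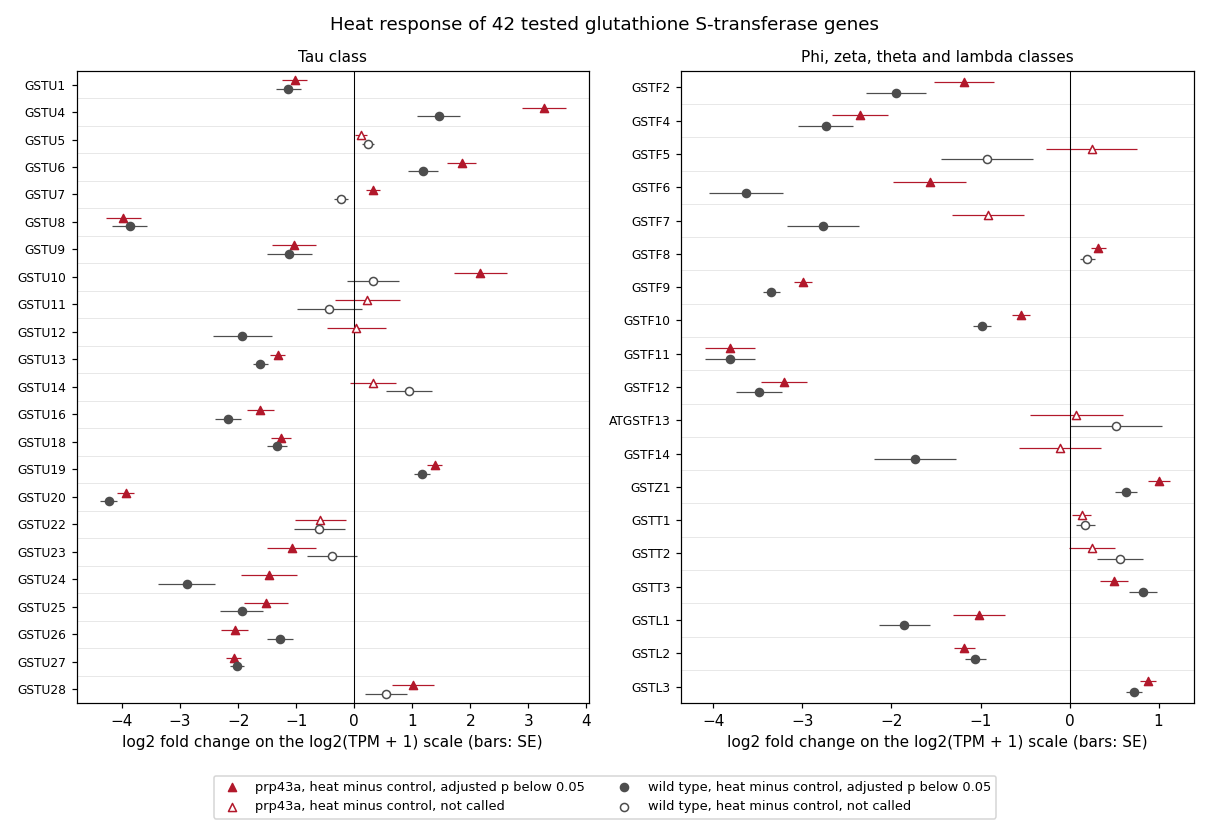
Log2 fold change with heat (heat minus control, on the log2(TPM + 1) scale) and its standard error for the 42 tested genes, red triangles for prp43a and grey circles for wild type, filled where the limma adjusted p was below 0.05. Phi genes lie mostly to the left of 0, with GSTF9, GSTF11 and GSTF12 at -2.99 or lower in both genotypes, and 6 genes have both symbols filled to the right of 0.

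In the tau class 6 members rose and 12 fell in prp43a and 3 rose and 12 fell in wild type, of 23 tested, with medians of -1.03 and -1.12. GSTU19 and GSTU20, neighbours on chromosome 1, moved in opposite directions. GSTU19, an abundant enzyme known for its response to herbicide safeners, had 1345 and 1214 TPM in prp43a heat and 1393 and 1045 TPM in wild-type heat, against 509 and 469 TPM in prp43a control and 581 and 493 TPM in wild-type control. All heat libraries lay above all control libraries, a log2 fold change of 1.38 ± 0.14 (SE) in prp43a and 1.17 ± 0.14 in wild type (limma adjusted p = 8.5e-06 and 2.8e-05). GSTU20, which binds the jasmonate-conjugating enzyme FIN219 and is linked to aliphatic glucosinolate synthesis, had 37.5 and 30.9 TPM in prp43a heat and 35.0 and 24.9 TPM in wild-type heat, against 549 and 522 TPM in prp43a control and 607 and 541 TPM in wild-type control. It fell by 3.94 ± 0.15 on the log2 scale in prp43a and fell by 4.23 ± 0.15 in wild type (limma adjusted p = 1.5e-08 and 9.1e-09). The ratio of GSTU19 to GSTU20 was 35.9 and 39.3 in prp43a heat and 39.8 and 42.0 in wild-type heat, against 0.927 and 0.899 in prp43a control and 0.957 and 0.911 in wild-type control. GSTU19 alone held 72.8% to 78.0% of tau TPM in the heat libraries and 31.5% to 33.3% in the control libraries.

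GSTU20 (AT1G78370) lies at chr1:29484120-29485389 and GSTU19 (AT1G78380) at chr1:29486387-29488007, both on the minus strand of TAIR10.1 and 997 bases apart, at the end of a row that also holds GSTU23, GSTU22 and GSTU21. Their upstream stretches are shown because these 2 neighbours moved in opposite directions. Each is the 250 bases before the annotated gene start, 5′ to 3′ on the gene's strand, from the RefSeq TAIR10.1 genome, with capitals for matches on either strand to TGACG (core of the as-1 element bound by TGA factors), GAANNTTC (core of the heat shock element) or TTGAC (core of the W box). The GSTU19 stretch is chr1:29488008-29488257 and that of GSTU20 is chr1:29485390-29485639.
GSTU19: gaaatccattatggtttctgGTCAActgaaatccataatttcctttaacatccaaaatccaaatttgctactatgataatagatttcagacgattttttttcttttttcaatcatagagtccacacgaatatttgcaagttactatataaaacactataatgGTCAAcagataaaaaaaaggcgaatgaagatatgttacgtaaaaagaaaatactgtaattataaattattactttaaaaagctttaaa
GSTU20: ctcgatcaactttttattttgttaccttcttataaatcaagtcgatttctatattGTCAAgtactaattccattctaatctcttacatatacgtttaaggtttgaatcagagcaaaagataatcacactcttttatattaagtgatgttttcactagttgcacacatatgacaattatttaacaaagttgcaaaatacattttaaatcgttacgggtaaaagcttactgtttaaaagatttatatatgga
The GSTU19 stretch holds TTGAC at -230 and -88 from the gene start and that of GSTU20 holds it at -195, all 3 on the opposite strand. The longest run the 2 stretches share is 8 bases. GAANNTTC is in neither of them.

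GSTU4 and GSTU6, from another cluster on chromosome 2, were low at control temperature and rose with heat. GSTU4 had 15.5 and 10.5 TPM in prp43a heat and 16.1 and 13.4 TPM in wild-type heat, against 0.57 and 0.305 TPM in prp43a control and 7.93 and 2.68 TPM in wild-type control. Heat levels of the 2 genotypes overlapped, while the 4 control libraries spread widely. Its log2 fold change was 3.27 ± 0.37 in prp43a and 1.45 ± 0.37 in wild type (limma adjusted p = 2.8e-05 and 0.0057). Without wild-type control replicate 1 the wild-type value was 2.09, without wild-type control replicate 2 it was 0.81, and without wild-type heat replicate 1 the call was lost (limma adjusted p = 0.0503, 0.00057 to 0.0503 over the alternatives). GSTU6 had 12.5 and 10.5 TPM in prp43a heat and 12.1 and 7.69 TPM in wild-type heat, against 2.77 and 2.15 TPM in prp43a control and 4.31 and 3.15 TPM in wild-type control. Its groups did not overlap between heat and control, with log2 fold changes of 1.85 ± 0.25 in prp43a and 1.18 ± 0.25 in wild type.

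GSTU5 and GSTU7, from the same chromosome 2 cluster, showed small differences. GSTU5, an auxin-responsive member, had 208 and 166 TPM in prp43a heat and 192 and 203 TPM in wild-type heat, against 175 and 169 TPM in prp43a control and 167 and 168 TPM in wild-type control, and passed in neither genotype. GSTU7 had 46.6 and 40.4 TPM in prp43a heat and 49.4 and 41.7 TPM in wild-type heat, against 34.8 and 34.4 TPM in prp43a control and 55.9 and 50.9 TPM in wild-type control. Both prp43a heat libraries lay above both prp43a controls, and both wild-type heat libraries below both wild-type controls. The log2 fold changes were 0.32 ± 0.12 in prp43a (limma adjusted p = 0.037) and -0.23 ± 0.12 in wild type (limma adjusted p = 0.12). With median-of-ratios scaling the prp43a value was 0.01, not called, and the wild-type value -0.51, called (limma adjusted p = 0.97 and 0.0054; over the alternatives 0.0234 to 0.97 and 0.0054 to 0.475). GSTU1, also from that cluster, had 2.57 and 2.52 TPM in prp43a heat and 4.63 and 3.65 TPM in wild-type heat, against 6.99 and 5.52 TPM in prp43a control and 10.7 and 9.83 TPM in wild-type control, and fell in both genotypes by 1.03 and 1.14 on the log2 scale.

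The tau genes that fell in both genotypes included several of the better expressed members. GSTU8 had 0.298 and 0 TPM in prp43a heat and 0.269 and 0.27 TPM in wild-type heat, against 22.5 and 12.7 TPM in prp43a control and 20.6 and 14.9 TPM in wild-type control, values of 1 read or none in each heat library. GSTU13, an enzyme linked to the defence use of indole glucosinolates, had 21.4 and 26.3 TPM in prp43a heat and 21.3 and 23.9 TPM in wild-type heat, against 57.4 and 63.9 TPM in prp43a control and 68.4 and 74.4 TPM in wild-type control. GSTU27 had 12.8 and 11.4 TPM in prp43a heat and 13.3 and 14.7 TPM in wild-type heat, against 53.3 and 55.3 TPM in prp43a control and 55.6 and 64.3 TPM in wild-type control. None of these 3 overlapped between heat and control, and their log2 fold changes were -3.98, -1.32 and -2.08 in prp43a and -3.87, -1.62 and -2.02 in wild type. GSTU16 had 9.74 and 5.31 TPM in prp43a heat and 6.82 and 6.84 TPM in wild-type heat, against 21.8 and 27.1 TPM in prp43a control and 32.9 and 35.8 TPM in wild-type control. GSTU18 had 24.3 and 23.1 TPM in prp43a heat and 21.9 and 31.7 TPM in wild-type heat, against 65.6 and 51.1 TPM in prp43a control and 66.0 and 69.5 TPM in wild-type control. Its overlapping neighbour AT1G10370 (ERD9, GSTU17), a drought-induced gene outside the name rule, had 25.9 and 26.4 TPM in prp43a heat and 24.9 and 21.2 TPM in wild-type heat, against 125 and 129 TPM in prp43a control and 128 and 119 TPM in wild-type control. All 3 were lower in every heat library than in any control library, and the limma adjusted p was at most 0.00013 for each in both genotypes. The share of all tested genes whose heat and control libraries separate this way is not given, here or for the other members described so. GSTU18 and ERD9 overlap by 71 bases on 1 strand, and how shared reads were counted is not given in the sources used here.

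The 11 other tested tau genes stayed at or below 23.3 TPM. In both genotypes GSTU9, GSTU24, GSTU25 and GSTU26 fell, with GSTU24, known for the breakdown of the explosive TNT together with GSTU25, at 4.05 and 1.66 TPM in prp43a heat and 2.74 and 0.61 TPM in wild-type heat, against 13.1 and 6.28 TPM in prp43a control and 23.3 and 12.5 TPM in wild-type control. The lowest control value was above the highest heat value for GSTU24. GSTU11, GSTU14 and GSTU22 passed in neither genotype. GSTU10, GSTU23 and GSTU28 passed in prp43a and GSTU12 in wild type, as listed above.

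Most phi genes fell. Of 12 tested, 1 rose and 7 fell in prp43a and none rose and 9 fell in wild type, with medians of -1.05 and -2.34. GSTF9, 1 of the enzymes linked to indole glucosinolate synthesis, had 74.6 and 68.1 TPM in prp43a heat and 59.8 and 55.2 TPM in wild-type heat, against 583 and 564 TPM in prp43a control and 649 and 545 TPM in wild-type control. Its log2 fold change was -2.99 ± 0.10 in prp43a and -3.35 ± 0.10 in wild type (limma adjusted p = 6.9e-09 and 3.5e-09). GSTF10, its neighbour on chromosome 2, 897 bases away on the same strand, is linked to the same pathway. It had 206 and 188 TPM in prp43a heat and 182 and 151 TPM in wild-type heat, against 293 and 284 TPM in prp43a control and 340.3 and 316 TPM in wild-type control, a fall of 0.55 ± 0.10 in prp43a and of 0.98 ± 0.10 in wild type on the log2 scale. The ratio of GSTF10 to GSTF9 was 2.76 and 2.77 in prp43a heat and 3.05 and 2.73 in wild-type heat, against 0.503 and 0.504 in prp43a control and 0.525 and 0.580 in wild-type control, so the order of these neighbours was the opposite after heat in both genotypes.

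GSTF6, GSTF7 and GSTF2 are the phi genes known from pathogen and salicylic acid responses, GSTF6 for the glutathione step of camalexin synthesis and GSTF2 for binding camalexin and indole compounds. GSTF6 had 51.3 and 33.6 TPM in prp43a heat and 34.2 and 19.5 TPM in wild-type heat, against 106 and 148 TPM in prp43a control and 547 and 202 TPM in wild-type control. GSTF7 had 46.4 and 37.4 TPM in prp43a heat and 42.5 and 25.4 TPM in wild-type heat, against 76.9 and 82.3 TPM in prp43a control and 398 and 132 TPM in wild-type control. GSTF2 had 95.9 and 87.1 TPM in prp43a heat and 139 and 72.7 TPM in wild-type heat, against 176 and 249.7 TPM in prp43a control and 556 and 273 TPM in wild-type control. For each of the 3, every heat library was below every control library, and wild-type control replicate 1 was the highest by 2-fold or more. Log2 fold changes were -1.57 ± 0.41, -0.92 ± 0.41 and -1.19 ± 0.34 in prp43a and -3.64 ± 0.41, -2.77 ± 0.41 and -1.95 ± 0.34 in wild type, in the order GSTF6, GSTF7, GSTF2. Of these only GSTF7 in prp43a failed (limma adjusted p = 0.067, 0.00104 to 0.28 over the alternatives). Without wild-type control replicate 1, the wild-type value was -2.92 for GSTF6 and -1.98 for GSTF7, and without wild-type control replicate 2 it was -4.35 and -3.56. In prp43a the call was lost for GSTF6 without prp43a control replicate 2 or without prp43a heat replicate 2 (limma adjusted p up to 0.0853), and for GSTF2 without prp43a control replicate 2 or without either prp43a heat library (up to 0.088).

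GSTF7 (AT1G02920, chr1:658578-659980) and GSTF6 (AT1G02930) are neighbours on the minus strand, 1107 bases apart, followed by GSTF5 and GSTF4. Their coding sequences were identical at 94.7% of aligned bases, the highest value among 78 pairs of phi genes, whose median was 58.7%. Reads of such near copies can be split between them, and the counting rule for shared reads is not given in the sources used here, so their separate levels are uncertain. The same holds for GSTF2, whose coding sequence matched that of the low gene GSTF3 at 94.5% of aligned bases. The stretch before the GSTF7 start, chr1:659981-660230, is shown because this gene differed widely between libraries, with the same capitals as above.
GSTF7: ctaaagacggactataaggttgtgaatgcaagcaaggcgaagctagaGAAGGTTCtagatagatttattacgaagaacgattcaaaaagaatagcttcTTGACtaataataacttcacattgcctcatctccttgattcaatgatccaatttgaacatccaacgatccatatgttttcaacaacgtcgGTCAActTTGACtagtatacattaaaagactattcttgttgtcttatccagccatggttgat
GSTF7 holds 3 TTGAC in this stretch, at -152, -62 and -55, and 1 GAANNTTC at -203.

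GSTF8, whose promoter is a classic stress reporter, had 154 and 152 TPM in prp43a heat and 150.0 and 165 TPM in wild-type heat, against 123 and 122 TPM in prp43a control and 143 and 131 TPM in wild-type control. Heat libraries were above control libraries in both genotypes, with log2 fold changes of 0.32 ± 0.09 in prp43a, called, and 0.20 ± 0.09 in wild type, not called (limma adjusted p = 0.0066 and 0.057). With median-of-ratios scaling the prp43a value was 0.00 and not called, and the wild-type value was -0.09. GSTF11, linked to aliphatic glucosinolate synthesis like GSTU20, was listed at 0 in both prp43a heat libraries and had 0.391 and 0 TPM in wild-type heat, against 11.1 and 15.4 TPM in prp43a control and 18.5 and 13.1 TPM in wild-type control. GSTF12, known as TT19 and needed to bring anthocyanins to the vacuole, was listed at 0 in all 4 heat libraries, against 7.66 and 8.84 TPM in prp43a control and 12.1 and 8.63 TPM in wild-type control. Taking 3 reads per library as the floor, GSTF12 was at least 7.5-fold lower in prp43a and at least 10.4-fold lower in wild type, and GSTF11 at least 10.3-fold lower in prp43a. The 4 other tested phi genes, GSTF4, GSTF5, ATGSTF13 and GSTF14, stayed at or below 9.51 TPM. GSTF4 fell in both genotypes, to 0.825 and 0.811 TPM in prp43a heat and 0 and 0.746 TPM in wild-type heat, against 8.55 and 8.04 TPM in prp43a control and 9.51 and 6.42 TPM in wild-type control. GSTF5 and ATGSTF13 passed in neither.

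Of the 7 tested zeta, theta and lambda genes, 3 rose and 2 fell in each genotype. Their median was 0.25 in prp43a, or -0.03 with median-of-ratios scaling, and 0.57 in wild type. GSTL3, the most abundant lambda gene, had 519 and 467 TPM in prp43a heat and 438 and 501 TPM in wild-type heat, against 267 and 265 TPM in prp43a control and 288 and 278 TPM in wild-type control. GSTL2, a plastid enzyme of the class, had 38.7 and 32.9 TPM in prp43a heat and 44.8 and 37.0 TPM in wild-type heat, against 79.3 and 85.2 TPM in prp43a control and 83.9 and 87.9 TPM in wild-type control. These 2 lambda genes moved in opposite directions with no overlap, by 0.88 ± 0.09 and -1.18 ± 0.12 in prp43a and by 0.73 ± 0.09 and -1.06 ± 0.12 in wild type (log2). The ratio of GSTL3 to GSTL2 was 13.4 and 14.2 in prp43a heat and 9.78 and 13.6 in wild-type heat, against 3.37 and 3.12 in prp43a control and 3.44 and 3.16 in wild-type control. GSTL1, whose gene ends 3 bases before GSTL3 begins, was listed at 0 in both prp43a heat libraries and had 0 and 0.312 TPM in wild-type heat, against 1.14 and 0.917 TPM in prp43a control and 2.75 and 3.58 TPM in wild-type control. It passed as lower in both genotypes, but in prp43a its control mean of 1.03 TPM is no higher than the 1.03 TPM that 3 reads per library stand for in heat, so no lower bound above 1.0-fold can be given.

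GSTZ1, the maleylacetoacetate isomerase of tyrosine breakdown, had 58.8 and 51.5 TPM in prp43a heat and 60.4 and 51.6 TPM in wild-type heat, against 27.6 and 26.2 TPM in prp43a control and 37.9 and 33.5 TPM in wild-type control. It rose by 1.01 ± 0.12 in prp43a and by 0.63 ± 0.12 in wild type on the log2 scale (limma adjusted p = 4.3e-05 and 0.0011). The low gene GSTZ2 matched it at 87.8% of aligned coding bases, so some reads may be shared. GSTT1, the peroxisomal theta enzyme, had 79.8 and 76.4 TPM in prp43a heat and 95.3 and 82.6 TPM in wild-type heat, against 73.2 and 68.9 TPM in prp43a control and 82.8 and 74.0 TPM in wild-type control, and passed in neither. GSTT3 had 13.2 and 13.3 TPM in prp43a heat and 13.9 and 13.6 TPM in wild-type heat, against 8.56 and 9.61 TPM in prp43a control and 7.21 and 7.47 TPM in wild-type control. The GSTT3 groups did not overlap, with log2 fold changes of 0.50 ± 0.16 in prp43a and 0.82 ± 0.16 in wild type, but in prp43a the call was lost with median-of-ratios scaling, where the value was 0.21, with quantile normalization, and without prp43a control replicate 1 or either prp43a heat library (limma adjusted p up to 0.25, against 0.016 as reported). GSTT2 and GSTT3 were identical at 91.5% of aligned coding bases, and GSTT1 matched GSTT3 at 90.9% and GSTT2 at 89.7%. How reads were split among these 3 theta genes is therefore uncertain too. GSTT2 lay between 5.31 and 11.4 TPM and passed in neither genotype.

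Between prp43a and wild type at control temperature, no member passed (0 of 42 by limma and 0 by voom on the recovered reads), where 14 of 19697 genes, 0.0711%, were called. At an unadjusted p below 0.05, 11 members were lower in prp43a and none higher, where 3.77% of all tested genes were lower and 5.16% higher at that level. These 11 were GSTU1, GSTU4, GSTU7, GSTU10, GSTU12, GSTF2, GSTF6, GSTF7, GSTF14, GSTZ1 and GSTL1. In each the 2 prp43a control libraries lay below the 2 wild-type control libraries. The 11 were picked by p from these same libraries, so the separation adds no support, and its share over all tested genes is not given. The members' median log2 fold change was -0.17, beside 0.01 over all tested genes. With 2 libraries against 2, the smallest two-sided p of an exact permutation test is 0.333, so no single gene could be called that way.

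The 2 wild-type control libraries differed in these genes. Of the 42 tested members, 10 lay at least 1 log2 unit apart between the 2 wild-type controls, against 2 in prp43a heat, 2 in wild-type heat and 3 in prp43a control, and beside 2.32% to 2.77% of all tested genes per group. In 9 of these, namely GSTU4, GSTU10, GSTU11, GSTU12, GSTU23, GSTF2, GSTF5, GSTF6 and GSTF7, replicate 1 was the higher one, and in GSTF14 replicate 2. Wild-type control replicate 1 was the highest of the 4 control libraries for 25 of the 42 members, 59.5%, beside 27.9% of all tested genes. For prp43a control replicate 1 these shares were 16.7% and 24.7%. Of the 4 heat libraries, prp43a heat replicate 1 was highest for 42.9% of the members, beside 28.7% of all tested genes. For wild-type heat replicate 1 these shares were 31.0% and 15.8%. Without wild-type control replicate 1, 5 members stayed at an unadjusted p below 0.05, GSTU4, GSTU7, GSTF7, GSTF14 and GSTL1, all lower. Without wild-type control replicate 2, the log2 fold change was -2.64 for GSTU4, -2.33 for GSTU10, -2.62 for GSTU12 and -2.31 for GSTF7. Without wild-type control replicate 1, it was -1.36, -0.65, -0.83 and -0.73 in the same order. The first of these fits leaves 1 wild-type control library, the higher one in these genes, so its calls are not counted here. Over all alternatives the adjusted p reached 0.61 for GSTU4, 0.924 for GSTU10, 0.906 for GSTU12 and 0.866 for GSTF7.

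**Figure D4:**
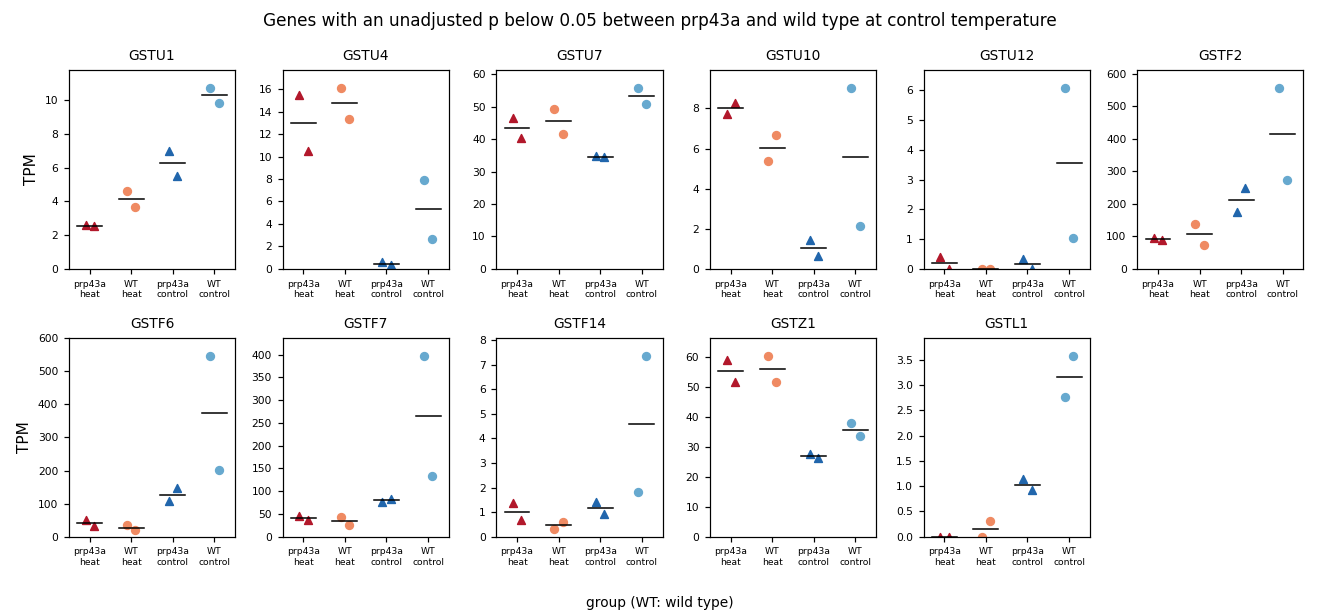
TPM in each library, with group means as bars, for the 11 genes with an unadjusted p below 0.05 between prp43a and wild type at control temperature, with groups from left to right prp43a heat, wild-type heat, prp43a control and wild-type control (axes start at 0). Both prp43a control points lie below both wild-type control points in each panel, in genes picked by p from these same libraries. The wild-type control points are far apart for GSTU10, GSTU12, GSTF2, GSTF6, GSTF7 and GSTF14.

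The smallest unadjusted p-values at control temperature belonged to GSTU4, GSTU7 and GSTF7. GSTU4 differed by -2.00 ± 0.37 on the log2 scale (limma adjusted p = 0.14), GSTU7 by -0.61 ± 0.12 (adjusted p = 0.18) and GSTF7 by -1.52 ± 0.41 (adjusted p = 0.29). GSTU10 had 7.73 and 8.29 TPM in prp43a heat and 5.38 and 6.67 TPM in wild-type heat, against 1.46 and 0.623 TPM in prp43a control and 9.03 and 2.13 TPM in wild-type control. GSTU12 had 0.404 and 0 TPM in prp43a heat and 0 TPM in both wild-type heat libraries, against 0.335 and 0 TPM in prp43a control and 6.09 and 1.05 TPM in wild-type control. GSTF14 had 1.36 and 0.67 TPM in prp43a heat and 0.307 and 0.617 TPM in wild-type heat, against 1.41 and 0.906 TPM in prp43a control and 1.81 and 7.37 TPM in wild-type control. All 3 are low genes in which 1 wild-type control library holds most of the group's level. For 4 abundant members the log2 difference at control temperature was no larger than its standard error, at -0.13 ± 0.14 for GSTU19, -0.10 ± 0.15 for GSTU20, -0.05 ± 0.10 for GSTF9 and -0.09 ± 0.09 for GSTL3. Among other abundant members it was larger than its standard error, at -0.18 ± 0.10 for GSTF10, -0.16 ± 0.09 for GSTF8 and -0.89 ± 0.34 for GSTF2.

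After heat no member passed between prp43a and wild type (0 by limma and 0 by voom), where 1 of 19697 genes, 0.00508%, was called. At an unadjusted p below 0.05, GSTF9 and GSTF10 were higher in prp43a, by 0.31 ± 0.10 and 0.25 ± 0.10, and GSTU1 was lower, at -0.53 ± 0.21, each with a limma adjusted p of 1. In all 3 the 2 prp43a heat libraries lay on 1 side of the 2 wild-type heat libraries, which adds no support, since the 3 were picked by p from these libraries. Over all tested genes 2.74% were higher and 1.83% lower at that level. The members' median was -0.03, beside 0.03 over all genes.

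The difference of the heat responses, prp43a minus wild type, also passed for no member (0 by limma and 0 by voom), where 0.0102% of all tested genes were called. At an unadjusted p below 0.05, 9 members were above 0 and GSTU26 below, beside 3.29% and 2.99% of all tested genes. GSTF6 had 2.06 ± 0.58 (limma adjusted p = 0.64), GSTU4 1.81 ± 0.53 (adjusted p = 0.65) and GSTF7 1.85 ± 0.57 (adjusted p = 0.71), all on the log2 scale. This comparison shares its 4 control libraries with the comparison at control temperature, wild-type control replicate 1 included. Without that library 7 members lay above 0 at an unadjusted p below 0.05 and 2, GSTU23 and GSTU26, below, and the median was 0.17, against 0.30 with it.

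Genes around the enzymes were counted from lists made by function, and no list was tested as a set. The heat counts of every list stand beside 43.1% of all tested genes that rose and 27.0% that fell in prp43a. In wild type these shares were 42.4% and 27.6%, and the medians over all tested genes were 0.28 in prp43a and 0.25 in wild type. Of 11 tested genes of glutathione synthesis, reduction and breakdown, 3 rose and 3 fell with heat in prp43a and 3 rose and 6 fell in wild type, with medians of -0.04 and -0.23. GSH2, the glutathione synthetase, averaged 20.5 ± 3.25 TPM in prp43a heat and 18.2 ± 3.75 TPM in wild-type heat, against 70.9 ± 1.42 TPM in prp43a control and 75.4 ± 4.30 TPM in wild-type control (SD, n = 2 each), while GSH1, which makes the first bond, had 182 and 173 TPM in prp43a heat and 165 and 159 TPM in wild-type heat, against 180 and 185 TPM in prp43a control and 198 and 181 TPM in wild-type control. GSH1 passed as lower in wild type, at -0.23 ± 0.08 (limma adjusted p = 0.028), and did not pass in prp43a, at -0.04 ± 0.08. The cytosolic glutathione reductase GR1_1 fell by 1.47 in prp43a and by 1.49 in wild type on the log2 scale, and the transpeptidase GGT1_2 fell by 1.71 in prp43a and fell by 2.29 in wild type. AT4G31290, a glutathione-degrading cyclotransferase gene, rose by 1.44 in prp43a and by 1.24 in wild type. So the list held both directions in each genotype.

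Of 14 tested glutathione peroxidases, dehydroascorbate reductases and other enzymes of the GST fold or the microsomal type, 8 rose in each genotype, and 3 fell in prp43a and 5 in wild type, with medians of 0.52 and 0.49. AT1G65820, the microsomal glutathione S-transferase, which has no kinship in sequence with the soluble classes, averaged 441 ± 11.4 TPM in prp43a heat and 455 ± 73.6 TPM in wild-type heat, against 77.1 ± 3.44 TPM in prp43a control and 92.3 ± 3.95 TPM in wild-type control (SD, n = 2 each). It rose by 2.50 ± 0.11 in prp43a and by 2.28 ± 0.11 in wild type on the log2 scale. In prp43a, AT1G77290, the TCHQD class member, rose by 1.69, the dehydroascorbate reductase DHAR2 rose by 1.76 and the chloroplast peroxidase GPX7 fell by 2.13. In wild type the same 3 genes rose by 1.57, rose by 1.25 and fell by 3.11.

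Among 8 tested transporters of conjugates and xenobiotics, 4 rose and 1 fell in prp43a and 3 rose and 3 fell in wild type, with medians of 0.26 and 0.05. The efflux carrier DTX1 had 38.0 and 51.4 TPM in prp43a heat and 46.5 and 37.9 TPM in wild-type heat, against 7.10 and 4.28 TPM in prp43a control and 8.95 and 6.45 TPM in wild-type control. The ABCC transporters given here did not move the same way, and the other ABCC genes of the list are not given. ABCC1 fell by 0.84 in prp43a and by 0.86 in wild type (log2). ABCC2 had 0.10 in prp43a and 0.02 in wild type and passed in neither. ABCC5 rose by 0.85 in prp43a and by 0.81 in wild type (log2). ABCG40, an abscisic acid importer of the plasma membrane, had 0.44 to 0.63 TPM in the heat and prp43a control libraries, against 11.3 and 1.58 TPM in wild-type control, again with replicate 1 high.

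Xenobiotic response genes and the TGA factors and SCL14 that regulate them went both ways, with 5 higher and 5 lower of 16 tested in prp43a and 5 higher and 8 lower in wild type, and medians of 0.09 and -0.79. The oxophytodienoate reductase OPR1 fell by 2.79 in prp43a and fell by 3.33 in wild type, its relative OPR2 fell by 3.13 in prp43a and by 2.95 in wild type, and the glucosyltransferase UGT74E2 fell by 2.22 in prp43a and by 3.09 in wild type (log2). UGT73B4 had -0.26 in prp43a, where it did not pass, and fell by 2.33 in wild type. The regulators OBF5, TGA6 and SCL14 rose in both genotypes, and the TGA factor AHBP-1B rose by 0.81 in wild type and had 0.24 in prp43a, where it did not pass. At control temperature none of the 16 passed between prp43a and wild type. Of the 16, 15 lay below 0, 6 had an unadjusted limma p below 0.05, all lower, and the median was -0.40. Over all tested genes 9172 of 19697 lay below 0, 3.77% were lower at that level and the median was 0.01. UGT73B4 is an example from the list, with 2.41 and 0.21 TPM in prp43a control and 10.5 and 3.98 TPM in wild-type control. Its higher value is again from wild-type control replicate 1.

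The flavonoid list held genes of enzymes and regulators of the pathway that makes the anthocyanins GSTF12 carries. Of its 7 tested genes, 1 rose and 6 fell in prp43a, with a median of -1.71. In wild type none rose and 6 fell, with a median of -1.94. DFR was listed at 0 in all 4 heat libraries, against 15.9 and 13.5 TPM in prp43a control and 25.0 and 18.0 TPM in wild-type control, as GSTF12 was. LDOX had 0.29 and 0 TPM in prp43a heat and 0.52 and 0 TPM in wild-type heat, against 20.6 and 17.2 TPM in prp43a control and 22.8 and 13.0 TPM in wild-type control. The pathway's first enzyme, TT4, stayed at 55.3 to 71.2 TPM in the heat libraries, against 141 to 185 TPM in the control libraries.

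Promoter windows of 300 bases, 250 before and 50 after each gene start, were searched on both strands for the 3 motifs named above. TGACG was in 19 of 48 members, 39.6%, beside 23.1% of 27443 nuclear protein-coding promoters, and in 13 of 27 tau genes. GAANNTTC was in 7 of 48 members, 14.6%, beside 11.6% of all promoters, in none of the 6 members that rose in wild type and in 6 of the 23 that fell. TTGAC, which shares the letters TGAC with TGACG, was in 28 of 48, 58.3%, beside 50.5%. Split by heat call in wild type, TGACG was in 2 of the 6 that rose and 8 of the 23 that fell. For TTGAC the split was 3 of 6 and 15 of 23. No split was tested. These are counts of letters in a window and show no binding.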

How the data were processed

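Messenger RNA was measured in 8 libraries, 2 per group, grouped and numbered by their titles. Libraries were made with TruSeq Stranded mRNA chemistry and read as pairs of 75 bp on a MiSeq, per the labels' protocols. A single table of TPM values, with 27655 rows and a column for each library, was deposited by the authors, per the file headers, and the submitters' processing notes name TAIR10 as the build. Neither aligner nor counter is named, nor how strand and shared reads were handled: not given in the sources used here. TPM values are shares, so a large rise of some genes lowers the others.

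Values were compared as log2(TPM + 1) with limma 3.58.1 in R 4.3.3, with a mean-variance trend, over 19697 genes with at least 1 TPM in at least 2 libraries. All 8 libraries entered 1 fit with a mean per group and 4 residual degrees of freedom, and a gene was called at a Benjamini-Hochberg adjusted p below 0.05 over all tested genes. Fold changes on this scale understate the change of low genes. The replicates are labelled as biological, with no word on separate cultures, and p-values measure the spread between them.

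Reads were recovered from the steps of low values with exon lengths of the TAIR10.1 annotation: 99.23% of 126947 values above 0 and up to 200 reads were whole within 0.05. Depth limits genes below a few TPM, and bounds for genes at 0 use 3 reads per library and cover counting error only. Positions, coding sequences and promoters are from RefSeq TAIR10.1.

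The members, the gene lists, the markers and the motifs were chosen with earlier results of these data known. Values in every library are given for 25 members: those whose mean reached 20 TPM in any group, the 5 highest and 5 lowest called with heat in wild type, and the 3 with the smallest p in each comparison of genotypes and in the difference. Values of a few others (GSTU10, GSTU12, GSTU24, GSTF4, GSTF14 and GSTL1) and of list members outside this rule (GSH1, DTX1, ABCC2, OBF5, TGA6, SCL14, TT4 and LDOX among them) were chosen after their values were seen. Alternatives were median-of-ratios scaling, quantile scaling, pseudocounts of 0.1 and 5, no filter on low values, a filter of 5 TPM, no trend, a fit of the compared groups alone, a replicate block, each library left out in turn, and voom on the recovered reads.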

Additional observations from a re-analysis of the deposited data

Results flagged for a closer look

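GSTU7 stood out because its heat libraries lay above the control libraries in prp43a and below them in wild type. The difference of the 2 heat responses, prp43a minus wild type, was 0.55 ± 0.17 on the log2 scale (limma adjusted p = 0.71), so it did not pass when tested over all genes. The levels behind it are a mean of 43.5 TPM in prp43a heat and 45.6 TPM in wild-type heat, against 34.6 TPM in prp43a control and 53.4 TPM in wild-type control, with 2 libraries each. With median-of-ratios scaling the heat response was 0.01 in prp43a and -0.51 in wild type.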

How the results depend on the processing

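Counts of called members kept within 1.5 times their value under every alternative run, with 2 exceptions. With median-of-ratios scaling, 6 members were called higher with heat in prp43a, against 10. Between prp43a and wild type at control temperature, 0 to 4 members were called lower when 1 library was left out, the 4 without wild-type control replicate 2. With 1 library left out, the lone library of its group is assumed to vary like the other groups. Heat calls then ranged from 8 to 10 higher and 17 to 22 lower in prp43a, and from 7 to 8 higher and 22 to 24 lower in wild type. No called member changed sign in any setting. For the 25 members named with values, 2187 of 2225 alternatives kept the side of the threshold, 20 lost a call and 18 gained one. Those 2187 include results that changed sign while not called either way. GSTU5 with heat in wild type, for example, ran from -0.07 to 0.28 over the alternatives (log2). The cause of these changes was not tested. Over all tested genes, replicate numbers did not pair the libraries (correlations of same-numbered deviations from -0.0276 to 0.0283). Among the members, replicate 1 lay above replicate 2 by a median of 0.152 in prp43a heat and 0.07 in wild-type heat (log2). At control temperature this median was 0.075 in prp43a and 0.162 in wild type. Over all tested genes the medians were 0.018, -0.077, 0.0 and 0.009 in the same order. The cause of this gap was not tested. A replicate block gave 10 higher and 22 lower with heat in prp43a, 6 higher and 23 lower in wild type, and 0 in the other comparisons. Members below about 1 TPM rest on a few reads.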
